A study of Mus musculus with 12 samples.

Results

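The 63 genes described here, apart from 1 pseudogene, encode proteins that bind messenger RNA precursors and help to remove their introns. They were taken from the 12637 genes of a count table by their symbols: genes named Srsf (10 SR proteins), Hnrnp (20 hnRNP proteins), Sf3a or Sf3b (9 subunits of splicing factor 3), Snrpa to Snrpg (11 polypeptides of the small nuclear ribonucleoproteins, snRNPs) and Prpf (13 pre-mRNA processing factors), each followed by its number or letter. Snrpert, among the 63, is annotated as a processed pseudogene of Snrpe and had 0.807 to 3.77 CPM (gene counts scaled to a common library total), the unit of all levels below unless another is named. Snrpf and Srsf12, which the naming rule also covers, were not analysed here.

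The cells were mouse embryonic fibroblasts (MEFs), a mixed culture of connective tissue cells, made immortal for long growth, and their poly(A) RNA was sequenced. Libraries fell into 4 groups of 3. KO Dox cells were depleted of the acetyltransferases CBP and p300, encoded by Crebbp and Ep300, and received 30 µg/ml doxycycline (Dox), an antibiotic that also inhibits mitochondrial ribosomes, for 24 h. KO DMSO cells had the same genotype and received DMSO, WT Dox cells were labelled wild type and received the same Dox dose, and WT DMSO cells were wild type with DMSO. Per the labels, depletion was induced with 4-hydroxytamoxifen in Crebbp fl/fl; Ep300 fl/fl cells that stably expressed Cre-ERT2, and cells grew in DMEM with 10% serum and no antibiotic beside Dox. No source used here says whether WT cells came from the same stock or received 4-hydroxytamoxifen, so the effect of the deletion and a difference between cell stocks cannot be told apart.

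As background, introns are removed by the spliceosome, which assembles on each intron from the U1, U2, U4, U5 and U6 snRNPs and many further proteins. Each snRNP except U6 holds a ring of Sm proteins around its RNA. The SF3A and SF3B complexes belong to the U2 snRNP and hold it at the branch point, while most PRPF proteins act in the U4/U6.U5 tri-snRNP or at the catalytic steps. SR proteins bind exons and mostly favour the use of nearby splice sites, and hnRNP proteins coat nascent RNA and often repress sites, so the balance of both families affects which exons are kept.

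Counts assigned to genes came to 44476039 to 52173143 per library, and the biological coefficient of variation common to all genes was 2.26%. Nothing in the labels says that replicates were separate cultures, so every p-value here is set by how much these libraries differ, which may be technical variation. KO DMSO replicates 1 and 2 had 7.63% and 6.65% unmapped reads, against 1.85 to 2.09% in the other 10 libraries. Processed pseudogenes were low in KO DMSO replicate 1 and all 3 WT DMSO libraries, termed the low-pseudogene set here. Ep300 lay at 111 to 115 CPM in KO Dox, 120.0 to 128 CPM in KO DMSO, 178 to 196 CPM in WT Dox and at least 192 CPM in WT DMSO libraries, and Crebbp at 53.7 to 57.0, 58.8 to 60.4, 60.4 to 63.5 and 65.8 to 67.8 CPM in the same order of groups. Reads from undeleted exons count towards both genes, so their totals do not check the deletion itself. Of 12 fibroblast markers 11 were in the table, and their summed level averaged 4815 ± 4.92 CPM in KO Dox and 4244 ± 71.0 CPM in KO DMSO libraries, against 15137 ± 287 CPM in WT Dox and 15108 ± 43.9 CPM in WT DMSO libraries (SD, n = 3 each). All 11 were lower in KO in both comparisons. Of the other markers, 4 of 6 macrophage, 1 of 5 muscle, 2 of 5 neural, 1 of 4 adipocyte, 0 of 5 endothelial and 0 of 6 epithelial genes were in the table, without the macrophage genes Ptprc and Adgre1. Those in the table also differed in KO against WT with DMSO. The macrophage genes Cd68, Lyz2, Cd14 and Csf1r had 4.02, -2.11, -0.54 and -0.51 on the log2 scale. Des, Tubb3, Map2 and Fabp4 had -2.18, -5.37, -0.35 and -6.75. Of these only Cd68 was higher in KO, averaging 24.3 CPM in KO DMSO and 1.495 CPM in WT DMSO libraries. The higher macrophage sum in KO with DMSO, given next, thus rests on Cd68 alone. The summed macrophage markers averaged 35.7 CPM in KO Dox, 39.5 CPM in KO DMSO, 23.1 CPM in WT Dox and 32.8 CPM in WT DMSO libraries, the neural ones 22.0, 22.9, 48.7 and 53.9 CPM, the muscle marker 1.44, 1.54, 5.45 and 7.01 CPM, and the adipocyte marker 0.357, 0.403, 30.7 and 43.6 CPM, in the same order. The part of these differences in the results below was not tested, and in these bulk libraries fewer cells of a type and less RNA per cell cannot be told apart.

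Together the 63 genes took 1.21 to 1.23% of gene counts in the 6 KO libraries and 1.37 to 1.40% in the 6 WT libraries. Per kilobase of exon (RPKM, averaged over the 4 groups), the hnRNP A proteins led. Hnrnpa2b1 stood at 161 RPKM, Hnrnpa1 at 144.6 RPKM and Hnrnpa0 at 141 RPKM. The order of levels differed between genotypes. Hnrnpa1 stood at 82.4 RPKM in KO Dox and 85.4 RPKM in KO DMSO libraries. In WT Dox libraries it stood at 209 RPKM and in WT DMSO libraries at 202 RPKM. Hnrnpa2b1 stood at 148 RPKM in both KO groups, against 178 RPKM in WT Dox and 169 RPKM in WT DMSO libraries. By these levels Hnrnpa1 led in WT cells and Hnrnpa2b1 in KO cells. Hnrnpa1 has 4 near-identical copies in the genome, matching up to 58.2% of its transcript, and Hnrnpa2b1 has 0. Their levels per kilobase may therefore not be fully comparable. Prpf6 exceeded Prpf8 in KO cells, with 71.7 against 59.0 RPKM in KO Dox and 78.0 against 60.8 RPKM in KO DMSO libraries, and lay below it in WT cells, with 41.4 against 63.1 RPKM in WT Dox and 46.3 against 65.9 RPKM in WT DMSO libraries. Averaged over the 4 groups, Snrpb led the snRNP polypeptides at 114 RPKM, Srsf5 the SR proteins at 79.2 RPKM, Sf3b2 the splicing factor 3 subunits at 70.9 RPKM and Prpf8 the PRPF factors at 62.2 RPKM. The lowest value of the protein-coding genes was 5.13 RPKM, for Srsf1. Replicates lay close together, with coefficients of variation of 0.142 to 9.92% in a group for all genes except Snrpert, which reached 25.6%.

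Loss of CBP and p300 went with lower levels of most splicing genes, and the snRNP polypeptides had the lowest median of the 5 classes. With DMSO, 60 of the 63 genes passed the test in KO against WT (edgeR adjusted p below 0.05 over all genes), 13 higher and 47 lower. Of all genes tested 89.4% passed, 45.1% higher and 44.3% lower, so a call by itself is common here. Among 7828 protein-coding genes with a mean of at least 20 CPM, 92.3% passed (46.6% higher and 45.7% lower). The median log2 fold change of the splicing genes was -0.43, against 0.02 over all genes. Libraries of KO and WT did not overlap for 15 genes on the higher and 46 on the lower side with DMSO, against 45.2% and 44.6% of all genes. With Dox, 61 passed, 13 higher and 48 lower, against 89.9% of all genes (45.1% higher and 44.8% lower) and 92.6% of the abundant protein-coding genes (47.2% higher and 45.5% lower), and the median was -0.42 against 0.01. Libraries did not overlap for 13 genes on the higher and 47 on the lower side, against 44.9% and 44.8% of all genes. These 2 comparisons share no library, but they contrast the same genotypes in the same fit with a shared estimate of spread. Their agreement is therefore not separate support. In both, 13 genes were higher and 46 lower, with 0 called in opposite directions, and the largest difference of a gene between them was 0.24 on the log2 scale. Scaling by total counts alone moved the median of all genes to 0.17 with DMSO and 0.14 with Dox. The median of the splicing genes lay 0.45 below it with DMSO and 0.43 below it with Dox under each of the 3 scalings. A change of scaling shifts all genes of a comparison by about the same amount, so this distance could hardly move and is not separate support. At least 1.5-fold lower were 25 genes with DMSO (39.7%, against 25.9% of all genes) and 23 with Dox (36.5%, against 26.6%), and at least 1.5-fold higher were 3 in each comparison (4.76%, against 22.5% and 22.9% of all genes).

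**Figure D1:**
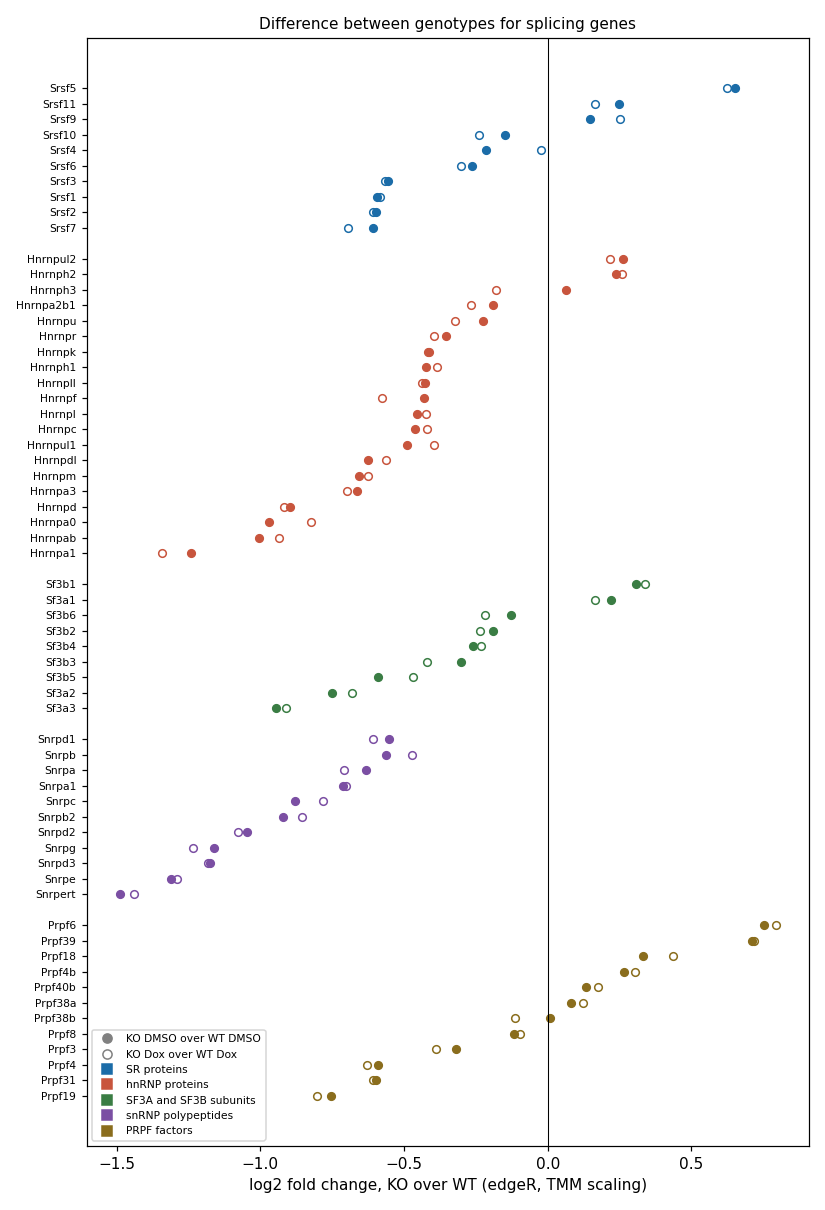
Log2 fold change of KO over WT (x axis) for all but 1 of the 63 genes (y axis), sorted within class, with DMSO (filled) and with Dox (open). All 11 snRNP polypeptides, counting the pseudogene Snrpert, lie left of 0 in both comparisons, and Prpf6, Prpf39 and Srsf5 lie furthest right.

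All 11 snRNP polypeptides, counting the pseudogene Snrpert, were lower in KO cells with DMSO and with Dox, beside 44.3% and 44.8% of all genes. Their libraries did not overlap with those of WT cells, as was so on the lower side for 44.6% and 44.8% of all genes. Their summed level was 645 ± 12.8 CPM in KO Dox and 625 ± 9.16 CPM in KO DMSO libraries, against 1136 ± 43.5 CPM in WT Dox and 1110.0 ± 10.1 CPM in WT DMSO libraries (SD, n = 3 each). With Snrpert counted, the median log2 fold change was -0.92 with DMSO and -0.86 with Dox. Without Snrpert, the summed level of the other 10 averaged 624 CPM in KO DMSO and 1107 CPM in WT DMSO libraries. Snrpe, a subunit of the Sm ring (chr1:133603871-133610291, minus strand, GRCm38), had 35.3, 34.1 and 34.2 CPM in KO Dox libraries, 31.0, 31.5 and 33.8 CPM in KO DMSO libraries, 80.8, 86.4 and 86.0 CPM in WT Dox libraries and 79.0, 79.4 and 81.2 CPM in WT DMSO libraries. It was 2.48-fold lower in KO than in WT with DMSO, a log2 fold change of -1.31 (SE 0.034, edgeR adjusted p = 2.7e-21). Snrpd3, another ring subunit (chr10:75517551-75537381, plus strand), had 48.7, 48.1 and 47.4 CPM in KO Dox libraries, 44.1, 45.5 and 45.7 CPM in KO DMSO libraries, 106, 111 and 111 CPM in WT Dox libraries and 102, 102 and 102 CPM in WT DMSO libraries. Its log2 fold change was -1.18 (SE 0.028, edgeR adjusted p = 2.8e-22) with DMSO and -1.18 (edgeR adjusted p = 1.6e-22) with Dox. In both genes the 6 KO libraries lay together at about the same low level, and every WT library was well above them.

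The ring subunits did not fall by a common amount. With DMSO, Snrpe, Snrpd3, Snrpg and Snrpd2 had log2 fold changes of -1.31, -1.18, -1.16 and -1.05, while Snrpb and Snrpd1 had -0.56 and -0.55. Snrpg, another of the low group (chr6:86371304-86379328, plus strand), had 47.8, 47.5 and 47.4 CPM in KO Dox libraries, 43.5, 47.3 and 48.0 CPM in KO DMSO libraries, 105, 115 and 116 CPM in WT Dox libraries and 102, 104 and 104 CPM in WT DMSO libraries. Snrpd2 had 51.5, 53.2 and 48.6 CPM in KO DMSO libraries, against 106, 107 and 104 CPM in WT DMSO libraries. Neither gene had a KO library near a WT library. Gm8186, a near-identical copy of Snrpg, averaged 7.06 CPM in KO DMSO and 16.2 CPM in WT DMSO libraries, a log2 fold change of -1.20. Reads of Snrpg and Gm8186 may be mixed up, and the part of this was not tested. Snrpb, the ring subunit with the highest level per kilobase, averaged 187 ± 5.14 CPM in KO Dox libraries, 184 ± 1.84 CPM in KO DMSO libraries, 259.9 ± 9.16 CPM in WT Dox libraries and 272 ± 6.47 CPM in WT DMSO libraries (SD, n = 3 each). The U1 proteins Snrpc and Snrpa had -0.88 and -0.63, and the U2 proteins Snrpb2 and Snrpa1 -0.92 and -0.71. The smallest of these differences, -0.55 (SE 0.03, edgeR adjusted p = 1.3e-14) for Snrpd1, also exceeded its SE many times over. Snrpert had 0.807 to 1.41 CPM in the 6 KO libraries and 3.01 to 3.77 CPM in the 6 WT libraries. A stretch of 225 bases of Snrpe matches it at 99.6% identity, so their reads may be mixed up and it does not count as separate support.

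**Figure D2:**
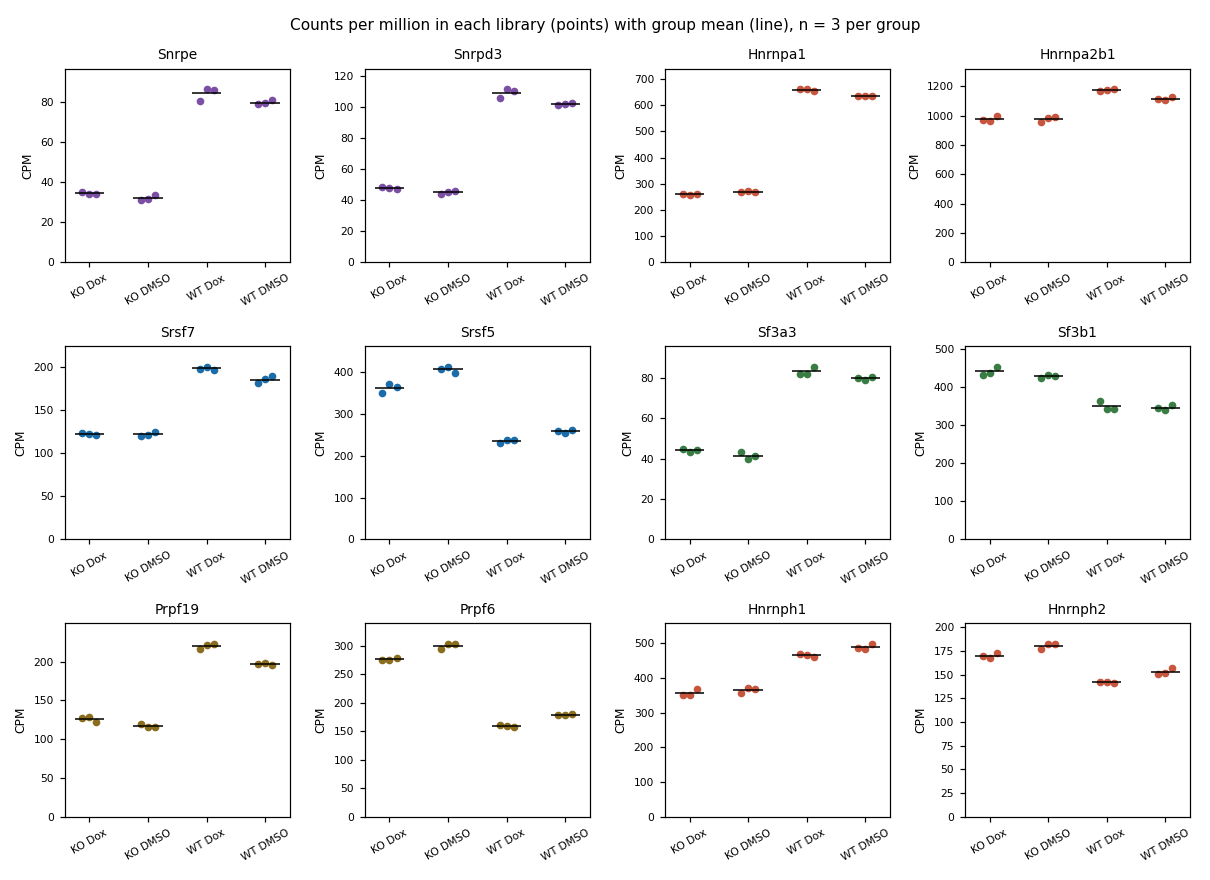
CPM (y axis, from 0) of 12 genes in each library (points) with the mean of each group (line), n = 3 per group, groups in the order KO Dox, KO DMSO, WT Dox and WT DMSO. The KO and WT points do not overlap in any panel, and KO lies higher for Srsf5, Sf3b1, Prpf6 and Hnrnph2 alone.

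Within SF3A and SF3B the subunits went in both directions, as genes in general did here. Of 9 subunits, 2 were higher and 7 lower in KO with DMSO, and the same counts were found with Dox. Of all genes 45.1% were higher and 44.3% lower with DMSO, and 45.1% and 44.8% with Dox. Sf3a3 (chr4:124714776-124732460, plus strand), an SF3A subunit that bridges to the core of the U2 snRNP, had 45.0, 43.4 and 44.4 CPM in KO Dox libraries, 43.1, 39.9 and 41.1 CPM in KO DMSO libraries, 82.2, 82.0 and 85.7 CPM in WT Dox libraries and 79.9, 79.2 and 80.3 CPM in WT DMSO libraries. Its log2 fold change was -0.95 (SE 0.03, edgeR adjusted p = 1.9e-19) with DMSO. Sf3a2, its neighbour in the complex, fell by 0.75 on the log2 scale, and Sf3b5 by 0.59. Sf3a2 had 45.9, 46.5 and 44.6 CPM in KO DMSO libraries, against 77.8, 77.0 and 75.4 CPM in WT DMSO libraries. Sf3b5 had 39.8, 36.9 and 39.3 CPM in KO DMSO libraries, against 59.7, 58.7 and 56.2 CPM in WT DMSO libraries. Both were lower in every KO DMSO library than in every WT DMSO library. Sf3a1, the third SF3A subunit, rose instead and averaged 178 ± 2.97 CPM in KO Dox libraries, 176 ± 2.30 CPM in KO DMSO libraries, 159 ± 1.71 CPM in WT Dox libraries and 151 ± 2.18 CPM in WT DMSO libraries (SD, n = 3 each).

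Sf3b1 (chr1:54985169-55027481, minus strand), the large SF3B subunit that contacts the branch point, also rose. It had 431, 436 and 453 CPM in KO Dox libraries, 423, 430.3 and 428 CPM in KO DMSO libraries, 362, 342 and 341 CPM in WT Dox libraries and 345, 339 and 352 CPM in WT DMSO libraries. All KO libraries lay above all WT libraries, and the log2 fold change was 0.31 (SE 0.025, edgeR adjusted p = 2.5e-11) with DMSO and 0.34 (edgeR adjusted p = 3.8e-12) with Dox. Sf3b3, Sf3b4 and Sf3b2 were lower in KO with DMSO, with log2 fold changes of -0.30, -0.26 and -0.19. Sf3b2, the subunit with the highest level per kilobase, had 464, 457 and 452 CPM in KO DMSO libraries, against 523, 526 and 518 CPM in WT DMSO libraries. Sf3b4 had 99.1, 99.6 and 98.7 CPM in KO DMSO libraries, against 118, 122 and 116 CPM in WT DMSO libraries. Sf3b6, which also binds near the branch point, passed at -0.13 (edgeR adjusted p = 0.012) although its libraries overlapped, but lost the call without WT DMSO replicate 2 (-0.071) and turned to 0.021 when libraries were scaled by total counts alone. Phf5a, an SF3B subunit that the naming rule does not cover, had -0.85 (edgeR adjusted p = 1.2e-19) with DMSO.

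PRPF factors had a median near that of all genes (0.04 with DMSO and -0.04 with Dox), the highest of the 5 classes. Their summed level was 1793 ± 16.0 CPM in KO Dox and 1837 ± 6.35 CPM in KO DMSO libraries, against 1777 ± 37.7 CPM in WT Dox and 1786 ± 12.2 CPM in WT DMSO libraries (SD, n = 3 each). With DMSO 6 were higher, 5 lower and 2 did not pass, where 45.1% of all genes were higher and 44.3% lower. With Dox 6 were higher, 6 lower and 1 did not pass, where 45.1% of all genes were higher and 44.8% lower. The sign of this median depends on the processing. Scaling by total counts gave medians of 0.19 with DMSO (8 higher, 4 lower) and 0.089 with Dox (7 higher, 4 lower), and removal of GC and length trends gave -0.098 with DMSO (5 higher, 8 lower) and -0.10 with Dox (5 higher, 7 lower). Prpf6 (chr2:181591868-181655660, plus strand), which bridges U5 to U4/U6, had 276, 275 and 279 CPM in KO Dox libraries, 295, 303 and 304 CPM in KO DMSO libraries, 162, 159 and 158 CPM in WT Dox libraries and 178, 179 and 179.8 CPM in WT DMSO libraries. No KO library came near a WT library, and Prpf6 was 1.68-fold higher in KO with DMSO, a log2 fold change of 0.75 (SE 0.021, edgeR adjusted p = 7.1e-21). Prpf39 (chr12:65036333-65063386, plus strand), a U1-associated factor, had 85.0, 88.4 and 89.8 CPM in KO Dox libraries, 89.5, 91.3 and 92.3 CPM in KO DMSO libraries, 55.3, 52.0 and 52.7 CPM in WT Dox libraries and 56.4, 54.3 and 56.1 CPM in WT DMSO libraries. Its log2 fold change was 0.71 (SE 0.029, edgeR adjusted p = 3.4e-17) with DMSO and 0.72 (edgeR adjusted p = 3e-17) with Dox. Prpf18, a factor of the second catalytic step, averaged 74.0 ± 0.889 CPM in KO Dox libraries, 76.8 ± 0.385 CPM in KO DMSO libraries, 54.7 ± 0.629 CPM in WT Dox libraries and 61.0 ± 0.528 CPM in WT DMSO libraries (SD, n = 3 each), with log2 fold changes of 0.33 (edgeR adjusted p = 6.2e-12) with DMSO and 0.44 (edgeR adjusted p = 3e-14) with Dox.

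Factors of the U4/U6 particle went the other way. Prpf31, Prpf4 and Prpf3 had log2 fold changes of -0.60, -0.59 and -0.32 with DMSO and -0.61, -0.63 and -0.39 with Dox. Prpf31 had 36.6, 37.7 and 36.6 CPM in KO DMSO libraries, against 56.0, 56.6 and 55.3 CPM in WT DMSO libraries. Prpf4 had 26.5, 27.8 and 28.8 CPM in KO DMSO libraries, against 40.8, 41.1 and 43.4 CPM in WT DMSO libraries. The KO DMSO and WT DMSO libraries of both genes lay well apart. Prpf19 (chr19:10895231-10909559, plus strand), a ubiquitin ligase that acts when the catalytic core forms, had 128, 129 and 122 CPM in KO Dox libraries, 119, 116 and 116 CPM in KO DMSO libraries, 216, 221 and 223 CPM in WT Dox libraries and 197, 198 and 196 CPM in WT DMSO libraries. It showed the lowest value of the class, -0.75 (SE 0.024, edgeR adjusted p = 1.1e-19) with DMSO, and every KO library lay below every WT library. Prpf4b, a kinase of the tri-snRNP, rose by 0.26 on the log2 scale with DMSO. Prpf8, the core protein of U5, was lower by a small amount, -0.12 (edgeR adjusted p = 0.00027) with DMSO, and turned to 0.032 with DMSO and 0.037 with Dox when libraries were scaled by total counts alone. Prpf40b, which is related to a yeast U1 protein, was higher at 0.13 (edgeR adjusted p = 0.00018) with DMSO. Prpf38a was also higher with DMSO, at 0.08 (edgeR adjusted p = 0.033), but lost this call in 12 of the alternatives tried and turned to -0.098 when trends on GC content and length were removed. Prpf38b had 0.0073 (edgeR adjusted p = 0.79) with DMSO and -0.11 (edgeR adjusted p = 0.00028) with Dox, and turned to 0.020 with Dox when scaled by total counts alone.

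Among the SR proteins 3 were higher and 7 lower in KO with DMSO, beside 45.1% and 44.3% of all genes. With Dox 3 were higher, 6 lower and 1 did not pass, beside 45.1% higher and 44.8% lower of all genes. Srsf7 (chr17:80200080-80207307, minus strand), which also takes part in mRNA export, had 124, 122 and 122 CPM in KO Dox libraries, 119.7, 121 and 125 CPM in KO DMSO libraries, 198, 201 and 197 CPM in WT Dox libraries and 182, 186 and 189.5 CPM in WT DMSO libraries. Its log2 fold change of -0.61 (SE 0.023, edgeR adjusted p = 7.4e-18) with DMSO lay beside those of Srsf2, Srsf1 and Srsf3, at -0.60, -0.60 and -0.55. Srsf2 had 125, 123 and 128 CPM in KO DMSO libraries, against 185, 195 and 189 CPM in WT DMSO libraries. Srsf1, the SR protein with the lowest level per kilobase, had 22.1, 23.7 and 23.5 CPM in KO DMSO libraries, against 35.8, 33.8 and 35.2 CPM in WT DMSO libraries. No library of either gene crossed between the genotypes. Srsf5 (chr12:80945504-80950507, plus strand) went against them. It had 351, 373 and 365 CPM in KO Dox libraries, 407, 414 and 399 CPM in KO DMSO libraries, 231, 239 and 237 CPM in WT Dox libraries and 259, 255 and 262 CPM in WT DMSO libraries. All 6 KO libraries exceeded all 6 WT libraries, by a log2 fold change of 0.65 (SE 0.024, edgeR adjusted p = 2.4e-18) with DMSO and 0.62 (edgeR adjusted p = 6.4e-18) with Dox. A near-identical copy, Gm12966, matches 51.7% of the Srsf5 transcript, and its part in these values was not tested. Srsf9 had 139, 127 and 128 CPM in KO DMSO libraries, against 119.9, 119 and 117 CPM in WT DMSO libraries. Srsf11 and Srsf9 were also higher, with 0.25 and 0.15 with DMSO, and Srsf6 and Srsf10 lower, with -0.26 and -0.15. Srsf4 was lower with DMSO, at -0.21 (edgeR adjusted p = 0.0023), and had -0.025 (edgeR adjusted p = 0.7) with Dox. The difference between treatments did not pass a test of its own, with an interaction of 0.19 (edgeR adjusted p = 0.097). Srsf4 shares 43.0% of its exon bases with Gm12992, a gene on the opposite strand, so part of its counts may belong to that gene.

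In KO against WT, 2 of 20 hnRNP genes were higher in each comparison, beside 45.1% of all genes. hnRNP proteins were lower for 17 of 20 genes with DMSO and 18 of 20 with Dox, beside 44.3% and 44.8% of all genes. Their summed level was 5697 ± 55.2 CPM in KO Dox and 5646 ± 57.3 CPM in KO DMSO libraries, against 8011 ± 4.94 CPM in WT Dox and 7882 ± 44.1 CPM in WT DMSO libraries (SD, n = 3 each). Hnrnpa1 (chr15:103240432-103246692, plus strand), one of the most abundant nuclear RNA-binding proteins and a repressor of splice sites, had 262, 258 and 259.6 CPM in KO Dox libraries, 269, 272 and 267 CPM in KO DMSO libraries, 661, 661 and 654 CPM in WT Dox libraries and 635, 637 and 636 CPM in WT DMSO libraries. Its 6 KO libraries spanned 258 to 272 CPM and its 6 WT libraries 635 to 661 CPM. The log2 fold change was -1.24 (SE 0.019, edgeR adjusted p = 6.6e-26) with DMSO and -1.34 (SE 0.019, edgeR adjusted p = 1.5e-26) with Dox. Its relative Hnrnpa2b1 (chr6:51460932-51469894, minus strand) had 971, 964 and 996 CPM in KO Dox libraries, 954, 982 and 989 CPM in KO DMSO libraries, 1169, 1176 and 1179 CPM in WT Dox libraries and 1111, 1103 and 1126 CPM in WT DMSO libraries. The groups did not overlap here either, but the log2 fold change was only -0.19 (edgeR adjusted p = 4.5e-09) with DMSO.

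The other A/B and D proteins lay between these values. With Dox, Hnrnpab, Hnrnpa0, Hnrnpd, which binds AU-rich elements in mRNA, Hnrnpa3 and Hnrnpdl had log2 fold changes of -0.93, -0.82, -0.92, -0.70 and -0.56. Hnrnpab had 153, 144 and 142 CPM in KO DMSO libraries, against 296, 296 and 288 CPM in WT DMSO libraries. Hnrnpa0 averaged 265 ± 5.55 CPM in KO Dox libraries, 263 ± 21.2 CPM in KO DMSO libraries, 469.8 ± 13.1 CPM in WT Dox libraries and 515 ± 13.5 CPM in WT DMSO libraries (SD, n = 3 each). Hnrnpa3 has 23 near-identical copies in the genome and Hnrnpab shares 29.1% of its exon bases with the opposite-strand gene Phykpl, so both values carry that uncertainty. With DMSO, Hnrnpm had -0.66 and Hnrnpc, which binds runs of U, -0.46, while the poly(C)-binding Hnrnpk and the CA-repeat binding Hnrnpl had -0.41 and -0.46. Hnrnpf and Hnrnpll, a relative of Hnrnpl, had -0.43 and -0.43. Hnrnpr and Hnrnpu, a nuclear matrix protein, had -0.35 and -0.22.

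Paralogs of the same family differed in direction. Hnrnph1 and Hnrnph2 both bind runs of G. Hnrnph1 (chr11:50376990-50386528, plus strand) had 351, 349.8 and 367 CPM in KO Dox libraries, 356, 370.2 and 369 CPM in KO DMSO libraries, 469, 467 and 459.7 CPM in WT Dox libraries and 485, 484 and 499 CPM in WT DMSO libraries. Hnrnph2 (chrX:134601179-134607060, plus strand) had 169.6, 167 and 173 CPM in KO Dox libraries, 177, 182 and 183 CPM in KO DMSO libraries, 142, 142 and 142 CPM in WT Dox libraries and 151, 151 and 157 CPM in WT DMSO libraries. Hnrnph1 was lower in KO, -0.42 (edgeR adjusted p = 8.3e-15) with DMSO, and Hnrnph2 higher, 0.24 (edgeR adjusted p = 5.3e-10), with no overlap between genotypes in either gene. Hnrnpul1 had 245, 250.5 and 240.1 CPM in KO DMSO libraries, against 341, 347 and 343 CPM in WT DMSO libraries. Hnrnpul2 had 293, 292 and 293 CPM in KO DMSO libraries, against 246, 242 and 245 CPM in WT DMSO libraries. Here too the first was lower and the second higher in KO, at -0.49 (edgeR adjusted p = 1.6e-16) and 0.26 (edgeR adjusted p = 7.6e-11). In the SR family Srsf5 and Srsf6 had 0.65 and -0.26. Whether 2 genes differ in their fold change was not tested, and these pairs were chosen after their values were seen. Hnrnph3, the third member of that subfamily, had 0.065 (edgeR adjusted p = 0.23) with DMSO and -0.18 (edgeR adjusted p = 0.0017) with Dox.

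**Figure D3:**
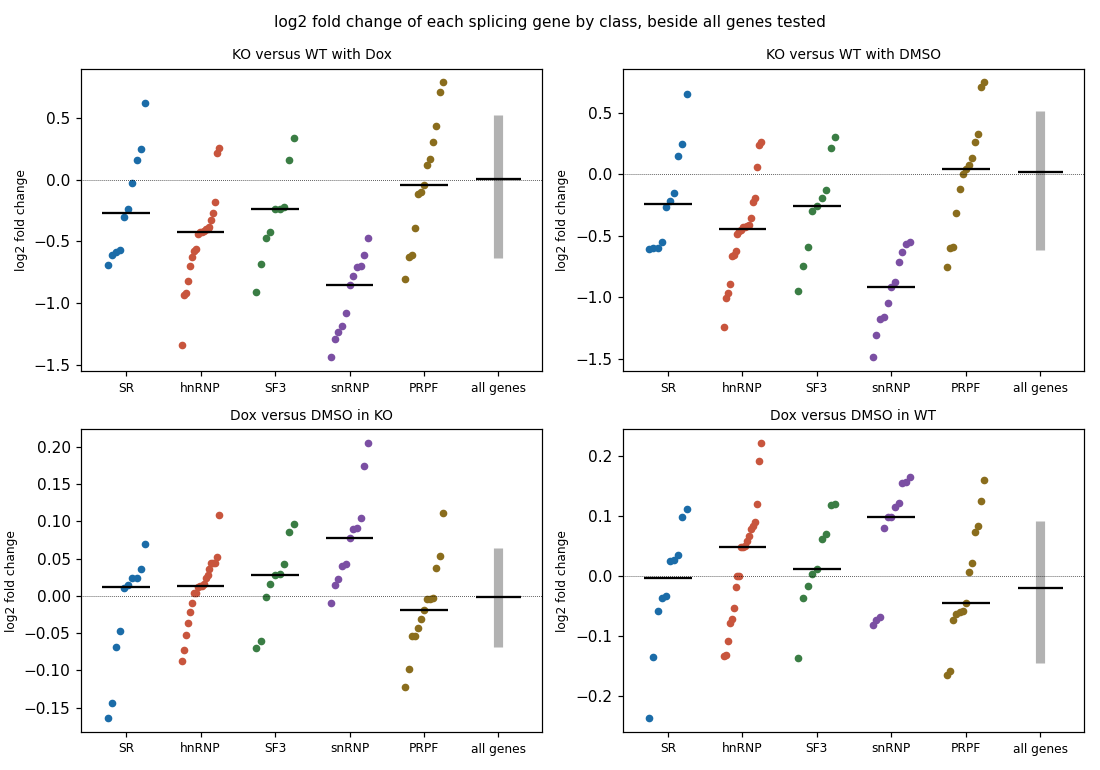
Log2 fold change (y axis) of each gene (points, sorted) by class with the class median (line), beside the median and interquartile range of all 12637 genes (grey bar), for KO over WT (upper panels) and Dox over DMSO (lower panels, with a narrower scale). In the upper panels the snRNP class lies wholly below 0, while the PRPF class spreads to both sides.

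Among these genes, those with a greater exon length, the union of all annotated exons of a gene, stood relatively higher in KO. Across the 63 genes, Spearman's rho between exon length and the log2 fold change of KO over WT was 0.445 with DMSO and 0.423 with Dox, against 0.04 and 0.062 across all genes. The points share their libraries, and the snRNP polypeptides are low in KO and mostly short by this measure. Within that class it runs from 279 bases for the pseudogene Snrpert to 6521 bases for Snrpc. A union of exons can exceed the length of a single transcript. When GC and length trends were removed from each library, all 11 snRNP polypeptides, counting Snrpert, stayed lower in both comparisons. Those trends were fitted over all genes, where the relation to length was weak, so this does not test the relation among the 63 genes.

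Promoter sequences are shown for the 3 genes with the lowest and the 3 with the highest values in KO against WT among those with a RefSeq entry, since promoters are where CBP and p300 are known to act together with transcription factors. They run from 250 bases before to 50 bases after the start of transcription that RefSeq gives on GRCm38.p6. Each is written 5′ to 3′ on the strand of the gene. The Prpf6 window lies wholly inside the gene as placed above (chr2:181591868-181655660), downstream of its first annotated base. Capitals mark matches on either strand to TGACGTCA (CRE), CCGGAAG (ETS), AAGATGGCG (YY1), GGGCGG (SP/KLF) and CCAAT (NFY).
Snrpe (chr1:133610231-133610530, minus strand): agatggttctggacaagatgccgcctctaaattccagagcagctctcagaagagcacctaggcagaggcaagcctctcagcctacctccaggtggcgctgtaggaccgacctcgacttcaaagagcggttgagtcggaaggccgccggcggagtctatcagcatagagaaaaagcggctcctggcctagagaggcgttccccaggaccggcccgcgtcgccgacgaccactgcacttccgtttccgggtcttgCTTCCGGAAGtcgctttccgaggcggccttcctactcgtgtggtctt
Hnrnpa1 (chr15:103240147-103240446, plus strand): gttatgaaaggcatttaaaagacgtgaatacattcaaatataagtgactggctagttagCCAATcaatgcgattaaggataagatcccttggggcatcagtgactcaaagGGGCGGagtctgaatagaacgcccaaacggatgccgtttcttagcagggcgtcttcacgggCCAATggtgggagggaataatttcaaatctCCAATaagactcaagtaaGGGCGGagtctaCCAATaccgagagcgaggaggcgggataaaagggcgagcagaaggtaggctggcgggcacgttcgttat
Snrpg (chr6:86371290-86371589, plus strand): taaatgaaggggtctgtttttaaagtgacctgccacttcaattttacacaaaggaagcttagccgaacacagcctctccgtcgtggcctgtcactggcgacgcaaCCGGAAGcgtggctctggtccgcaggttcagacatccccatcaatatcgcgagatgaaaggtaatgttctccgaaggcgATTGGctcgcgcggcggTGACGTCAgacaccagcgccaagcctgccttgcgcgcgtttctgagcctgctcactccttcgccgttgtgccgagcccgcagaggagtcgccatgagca
Prpf6 (chr2:181601069-181601368, plus strand): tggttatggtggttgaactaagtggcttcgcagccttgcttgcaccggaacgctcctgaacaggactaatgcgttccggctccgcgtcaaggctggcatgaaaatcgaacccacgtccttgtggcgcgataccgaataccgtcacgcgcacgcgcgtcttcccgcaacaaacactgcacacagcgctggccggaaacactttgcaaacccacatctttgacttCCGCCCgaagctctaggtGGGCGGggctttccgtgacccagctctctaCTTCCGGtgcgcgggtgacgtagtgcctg
Prpf39 (chr12:65036084-65036383, plus strand): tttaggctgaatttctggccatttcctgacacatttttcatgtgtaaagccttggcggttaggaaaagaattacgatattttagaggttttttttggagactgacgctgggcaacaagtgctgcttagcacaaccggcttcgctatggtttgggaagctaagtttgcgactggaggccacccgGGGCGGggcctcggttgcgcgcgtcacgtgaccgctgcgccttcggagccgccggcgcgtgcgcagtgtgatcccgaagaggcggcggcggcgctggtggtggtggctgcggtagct
Srsf5 (chr12:80945249-80945548, plus strand): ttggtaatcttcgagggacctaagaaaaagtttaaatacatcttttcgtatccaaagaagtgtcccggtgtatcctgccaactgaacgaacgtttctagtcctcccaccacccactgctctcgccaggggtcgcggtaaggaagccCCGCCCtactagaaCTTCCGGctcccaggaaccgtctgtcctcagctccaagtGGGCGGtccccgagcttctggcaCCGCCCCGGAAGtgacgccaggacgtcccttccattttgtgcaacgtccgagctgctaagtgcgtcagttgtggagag

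The promoter of Hnrnpa1 held 4 CCAAT and 2 GGGCGG matches, and that of Snrpg 1 match each to the CRE, ETS and NFY letters. In Snrpe a pair of ETS matches overlaps on opposite strands, and in Srsf5 an SP/KLF match overlaps an ETS match. A RefSeq promoter was found for 54 of the 63 genes. In the counts that follow, a splicing gene has a motif if any of its RefSeq promoters matches, while the backgrounds count each promoter singly. Genes with several promoters thus had more chances to match, which can raise their shares against the backgrounds. CCAAT was found for 23 of 40 genes lower in KO in both comparisons (57.5%) and for 3 of 11 genes higher in both (27.3%). The backgrounds were 37.4% of all RefSeq promoters and 38.2% of those of genes in the count table. GGGCGG was found in 24 of 40 (60.0%) and in all 11, against 35.7% and 63.4%. CCGGAAG was found in 14 of 40 (35.0%) and 5 of 11 (45.5%), against 8.86% and 17.9%, and TGACGTCA in 2 of 40 (5.0%) and 0 of 11, against 1.79% and 3.15%. TGACG, the CRE half-site, was found in 23 of 40 (57.5%) and 6 of 11 (54.5%), against 20.8% and 31.6%. The E-box, a further motif searched, was found in 6 of 40 (15.0%) and 3 of 11 (27.3%), against 7.15% and 9.95%. Both groups of splicing genes thus lay above both backgrounds for the ETS letters, the CRE half-site and the E-box. This was not so for the other motifs searched. AAGATGGCG was found in 0 of 40 and 1 of 11, against 1.4% and 3.06%. These counts describe letters in a window, and no binding was measured.

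Splicing genes outside the naming rule moved in both directions, by list, and their counts stand beside 45.1% higher and 44.3% lower among all genes with DMSO (45.1% and 44.8% with Dox). Of 18 tri-snRNP and LSm partners 0 were higher and 17 lower in KO with DMSO, with a median of -0.65. Lsm3, Lsm2 and Ppih were lowest, at -1.66, -1.61 and -1.64, the first pair being ring proteins of the U6 snRNP and Ppih a cyclophilin of the tri-snRNP. Of 22 genes of the exon junction complex and of snRNP assembly 4 were higher and 17 lower, and Gemin8 and Gemin6 of the SMN complex, which loads Sm rings, had -2.40 and -1.15. Of 19 partners in recognising splice sites 4 were higher and 11 lower, with U2af1, which reads the AG at the end of the intron, at -1.32 (edgeR adjusted p = 2.9e-22). Of 33 other regulators of alternative splicing 7 were higher and 24 lower, with a median of -0.43, and Mbnl3, Rbmxl1 and Celf2 had -2.21, -1.21 and -1.17.

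Proteins of the minor spliceosome, which removes a rare class of introns, are counted against the same shares. Of 12 such genes 8 were higher and 2 lower with DMSO, and 8 higher and 3 lower with Dox, with medians of 0.39 and 0.42. Zrsr1 and Ccdc84 had 1.63 (edgeR adjusted p = 1.7e-22) and 1.32 (edgeR adjusted p = 1.6e-19), while Snrnp35 was lower at -0.85. Among 14 SR protein kinases and SR-like regulators 7 were higher and 6 lower. Son, a large nuclear speckle protein, and the SR protein kinases Clk1 and Clk4 had 0.58, 0.54 and 0.52 with DMSO. Of 21 catalytic-stage partners 6 were higher and 8 lower, where 89.4% of all genes passed, with Ppil1 at -1.01 and Syf2 at 0.71. With Dox, the lists had 0 higher and 17 lower (tri-snRNP and LSm partners), 4 and 17 (junction complex and assembly), 3 and 11 (splice site recognition), 7 and 25 (other regulators), 7 and 6 (kinases and SR-like regulators) and 6 and 10 (catalytic-stage partners). Scaling by total counts moved several of these splits. With DMSO it gave 10 higher and 9 lower for splice site recognition, 13 and 7 for catalytic-stage partners, 9 and 5 for kinases and SR-like regulators, 10 and 19 for other regulators and 2 and 15 for tri-snRNP and LSm partners. With Dox it gave 8 and 9 for splice site recognition and 11 and 7 for catalytic-stage partners.

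Doxycycline changed the same genes far less. In KO cells, 14 of the 63 genes passed, 6 higher and 8 lower, against 21.7% of all genes (11.6% higher and 10.1% lower) and 27.8% of the abundant protein-coding genes (16.3% higher and 11.5% lower). In WT cells, 39 passed, 24 higher and 15 lower, against 53.1% of all genes (23.9% higher and 29.2% lower) and 59.3% of the abundant protein-coding genes (27.7% higher and 31.6% lower). The median log2 fold change was 0.02 in KO cells and 0.02 in WT cells, and no gene exceeded 0.24 in size in WT cells or 0.21 in KO cells. All 3 WT DMSO libraries belong to the low-pseudogene set, so in WT cells Dox and that set cannot be told apart from WT libraries alone. With a term for the set, which rests on KO DMSO replicate 1 against KO DMSO replicates 2 and 3, 12 genes passed in WT cells, 5 higher and 7 lower. Without KO Dox replicate 2 the count in KO cells was 6, without KO Dox replicate 1 it was 7 and without KO DMSO replicate 2 it was 8. Without KO DMSO replicates 1 and 2 together it was 4, an alternative added after the data were seen.

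Across all alternatives, 3 genes stayed lower and 1 higher in KO cells, and 5 stayed lower and 4 higher in WT cells. Srsf5, raised in KO cells, fell with Dox in both genotypes. Its 3 KO Dox libraries, at 351 to 373 CPM, lay below its 3 KO DMSO libraries, at 399 to 414 CPM, and its 3 WT Dox libraries, at 231 to 239 CPM, below its 3 WT DMSO libraries, at 255 to 262 CPM. The log2 fold change was -0.16 (SE 0.023, edgeR adjusted p = 1.5e-05) in KO cells and -0.14 (SE 0.024, edgeR adjusted p = 5.3e-05) in WT cells, with no overlap in either genotype. Prpf6 also fell in both, with -0.12 (SE 0.02, edgeR adjusted p = 9.4e-05) in KO cells and -0.16 (SE 0.021, edgeR adjusted p = 6.7e-07) in WT cells. Prpf19 rose in both. Every Prpf19 value in the Dox libraries listed above exceeded every value in the DMSO libraries of the same genotype. Its log2 fold change was 0.11 (SE 0.024, edgeR adjusted p = 0.0017) in KO cells and 0.16 (SE 0.023, edgeR adjusted p = 3.1e-06) in WT cells. For these 3 genes the change with Dox was opposite in sign to the difference of KO from WT with DMSO. Since the DMSO libraries enter both contrasts, that relation is not independent of them.

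**Figure D4:**
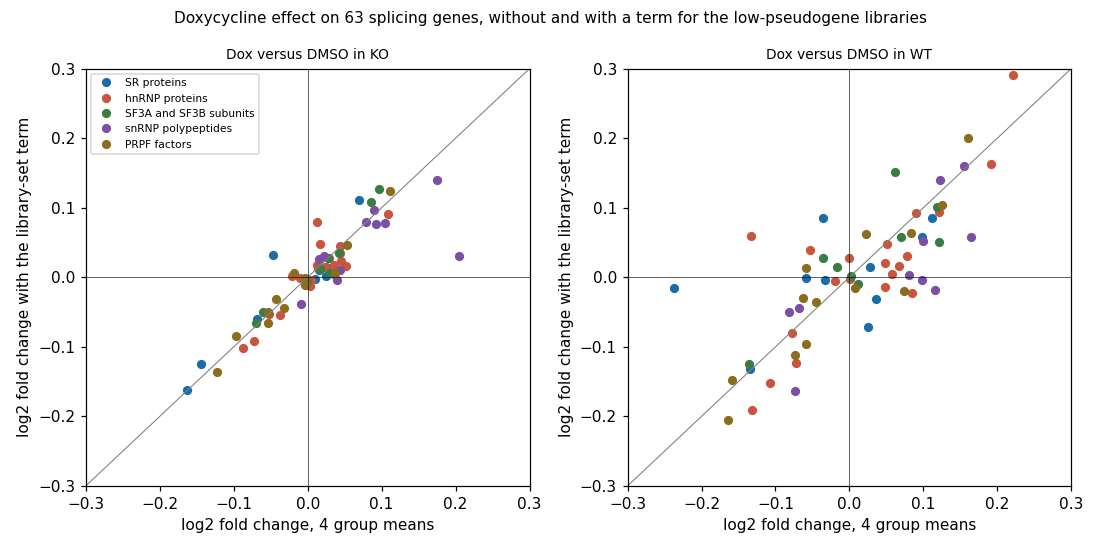
Log2 fold change of Dox over DMSO in the fit of 4 group means (x axis) against the value with a term for the low-pseudogene set added (y axis), for each of the 63 genes in KO cells (left) and WT cells (right). Points on the grey diagonal do not move, and Srsf5, Prpf6 and Prpf19 keep their sign in both panels.

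Srsf11, an SR-related protein, fell in KO cells. It had 341, 350.1 and 349.5 CPM in KO Dox libraries, against 393, 378 and 378 CPM in KO DMSO libraries, and 313, 309 and 307 CPM in WT Dox libraries, against 327, 314 and 326 CPM in WT DMSO libraries. The log2 fold change was -0.14 (SE 0.022, edgeR adjusted p = 5e-05) in KO cells and -0.059 (edgeR adjusted p = 0.033) in WT cells. In WT cells the calls that held in every alternative were Hnrnpf, Hnrnph3, Sf3b3 and Prpf19 on the higher side and Prpf6, Prpf18, Srsf5, Hnrnpdl and Hnrnph2 on the lower side. Hnrnpf, which like Hnrnph1 binds runs of G, had 205, 212 and 210.3 CPM in WT Dox libraries, against 184, 180.4 and 185 CPM in WT DMSO libraries. This gave 0.19 (SE 0.022, edgeR adjusted p = 1.5e-07), while the value in KO cells was 0.044 (edgeR adjusted p = 0.18). Hnrnpf has 7 near-identical copies, which match up to 52.0% of its transcript. It also shares 13.5% and 13.0% of its exon bases with the opposite-strand genes 4933440N22Rik and Gm43863. The part of the copies and of this overlap in its values was not tested. Hnrnph3 averaged 19.9 ± 1.34 CPM in WT Dox libraries and 17.1 ± 0.498 CPM in WT DMSO libraries (SD, n = 3 each), which gave 0.22 (SE 0.05, edgeR adjusted p = 0.00068). Prpf18 and Hnrnpdl were lower with Dox in WT cells, at -0.16 (edgeR adjusted p = 1.7e-05) and -0.13 (edgeR adjusted p = 4.2e-05). Srsf4 had the lowest value of all in WT cells, -0.24 (edgeR adjusted p = 0.0025), but with the term for the set it was -0.015 and did not pass.

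Of the 11 snRNP polypeptides, 3 were higher and 0 lower with Dox in KO cells, beside 11.6% and 10.1% of all genes, with a median of 0.078 (0.061 without Snrpert). In WT cells 7 were higher and 3 lower, beside 23.9% and 29.2% of all genes, with a median of 0.099. With the term for the low-pseudogene set the median was 0.030 in KO cells and turned to -0.0044 in WT cells. In KO cells 0 passed without KO DMSO replicate 1, KO Dox replicate 1 or KO Dox replicate 2, and 1 without KO DMSO replicate 2. The lower count in WT cells was 0 without WT DMSO replicate 2, WT Dox replicate 1 or any 1 of the 6 KO libraries, and 1 without WT DMSO replicate 3. Snrpa1, a U2 protein, rose in both. It had 18.1, 18.3 and 17.5 CPM in KO Dox libraries, against 15.2, 16.6 and 16.0 CPM in KO DMSO libraries, and 27.2, 30.1 and 30.5 CPM in WT Dox libraries, against 26.6, 27.0 and 24.7 CPM in WT DMSO libraries. Its log2 fold change was 0.17 (edgeR adjusted p = 0.019) in KO cells and 0.16 (edgeR adjusted p = 0.0043) in WT cells, where the term for the set left 0.058. With the term 0 snRNP polypeptides passed on the higher side in KO or in WT cells, and Snrpd1 and Snrpg turned to -0.0044 and -0.018. Of the 18 tri-snRNP and LSm partners 2 were higher and 1 lower with Dox in KO cells and 5 higher and 2 lower in WT cells, beside the same shares of all genes, and of the 14 SR kinases and SR-like regulators 0 were higher and 3 lower in KO cells and 1 higher and 7 lower in WT cells. Among the 63 genes, Hnrnpc rose by 0.11 on the log2 scale in KO cells and by 0.067 in WT cells.

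Near-identical copies of some of these genes had larger differences between WT Dox and WT DMSO libraries than the genes themselves. All 3 WT DMSO libraries are in the low-pseudogene set, so for these copies Dox and that set cannot be told apart in WT cells. Gm6793, a copy of Hnrnpa3, averaged 2.44 CPM in WT Dox and 0.587 CPM in WT DMSO libraries, a log2 fold change of 2.05 (edgeR adjusted p = 5.7e-05), and Gm9761, a copy of Srsf3, 1.58 CPM and 0.457 CPM, with 1.79 (edgeR adjusted p = 2e-06). Hnrnpa3 and Srsf3 themselves had 0.084 and 0.036. In KO cells the same copies had 0.087 (edgeR adjusted p = 0.86) and 0.23 (edgeR adjusted p = 0.55). In all, 17 of the 63 genes have a copy at 95% identity or more over at least 200 bases, and reads that fit both places may be counted in either or in neither. The part of this in the small Dox differences was not tested.

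The response to Dox differed between genotypes for few of these genes. In the interaction, the log2 fold change with Dox in KO cells minus that in WT cells, 10 of the 63 genes passed, 2 higher and 8 lower, against 32.5% of all genes (18.2% higher and 14.3% lower) and 40.1% of the abundant protein-coding genes (22.9% higher and 17.3% lower). Hnrnph3 had -0.24 (SE 0.07, edgeR adjusted p = 0.01), with -0.022 in KO cells and 0.22 in WT cells. Hnrnpf had -0.15 (SE 0.032, edgeR adjusted p = 0.001), and Sf3b3 -0.12 (SE 0.028, edgeR adjusted p = 0.0017). Sf3b3 had 371, 371 and 373 CPM in KO Dox libraries, against 369, 376 and 371 CPM in KO DMSO libraries, and 503, 489 and 499.6 CPM in WT Dox libraries, against 458, 460.4 and 455 CPM in WT DMSO libraries. Its libraries overlapped in KO cells and did not in WT cells. Hnrnpa1 had -0.10 (SE 0.027, edgeR adjusted p = 0.0051), from -0.052 (edgeR adjusted p = 0.059) in KO cells and 0.051 (edgeR adjusted p = 0.027) in WT cells. The interaction was smaller in size than the difference of KO from WT with DMSO for Hnrnpf, Sf3b3 and Hnrnpa1, but not for Hnrnph3. The calls of Hnrnpa1, Hnrnpf and Sf3b3 held in every alternative tried. Hnrnpa1 and Hnrnpf have 4 and 7 near-identical copies, and the part of these in their interaction was not tested.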

How the data were processed

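Poly(A)-selected RNA of 12 libraries was sequenced on a BGISEQ-500, per the labels' protocols. STAR 2.6.0a, HTSeq 0.10.0 and GRCm38.p6 are named in the submitters' processing notes. The values are raw read counts per gene, as deposited by the authors, with coordinates and exon lengths from GENCODE on GRCm38. No source used here says whether counting used strand. Rows that name no gene stayed out of library sizes. edgeR 4.0.16 (R 4.3.3) fitted 4 group means to 12637 genes by its quasi-likelihood F test with TMM scaling; filterByExpr removed none. Calls have a Benjamini-Hochberg adjusted p below 0.05 over all genes. SE is the fold change divided by the root of F. RPKM divides CPM by the union of exons. The fits were tested on simulated data. Alternatives changed scaling, filter, model, tool (DESeq2 1.42.0, limma 3.58.1) or left out libraries. Members and lists were chosen with earlier results of these data known. Values per library are given for called members with the largest changes of their class in either direction and for those with the highest level per kilobase; a few further members, such as paralogs, were named after their values were seen. Counts of 44476039 or more per library limit only the lowest genes. The values of 1 PRPF gene are counted but not reported here.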

Additional observations from a re-analysis of the deposited data

Results flagged for a closer look

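For 10 of the 63 genes the response to Dox differed between genotypes by a test of the difference itself (log2 fold change with Dox in KO minus that in WT, edgeR adjusted p below 0.05 over all genes). On the lower side were Hnrnph3 (-0.24), Hnrnpf (-0.15), Prpf38b (-0.12), Sf3b3 (-0.12), Hnrnpa1 (-0.10), Hnrnpu (-0.10), Srsf7 (-0.09) and Srsf11 (-0.09). On the higher side were Prpf18 (0.11) and Hnrnpul1 (0.09). With a term for the low-pseudogene set, which divides WT libraries by treatment, 7 genes passed, 1 higher and 6 lower. In reads outside the gene counts, the share without a match to the genome was 7.63% in KO DMSO replicate 1 and 6.65% in KO DMSO replicate 2, against 1.85 to 2.09% in the other 10 libraries.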

How the results depend on the processing

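In KO against WT, counts of called genes over all 63 stayed within 1.5 times under every alternative tried, but among PRPF factors with DMSO the lower count of 5 became 8 with GC and length trends removed. Leaving out single libraries gave 59 to 61 with DMSO (12 to 14 higher, 46 to 47 lower) and 61 to 62 with Dox (12 to 13 higher, 48 to 49 lower). Scaling by total counts turned Prpf8 to 0.032 with DMSO and 0.037 with Dox, Sf3b6 to 0.021 with DMSO and Prpf38b to 0.020 with Dox. Removing GC and length trends turned Prpf38a to -0.098 with DMSO and -0.024 with Dox. For Dox in WT the term for the low-pseudogene set left 12 called (5 higher, 7 lower) and turned Snrpd1 to -0.0044, Snrpg to -0.018, Hnrnpa3 to -0.023 and Hnrnpa0 to 0.059. Leaving out single libraries gave 29 to 39 (18 to 29 higher, 8 to 13 lower), with the lower count at 8 without KO DMSO replicate 2, KO Dox replicate 1 or KO Dox replicate 2, and at 9 without KO DMSO replicate 3, KO Dox replicate 3 or KO DMSO replicates 1 and 2 together. For Dox in KO it gave 6 to 17 (2 to 8 higher, 3 to 9 lower). Higher genes numbered 2 without KO Dox replicate 1 and 3 without KO Dox replicate 2, and lower genes 5 without KO DMSO replicate 1, 4 without KO DMSO replicate 2, 5 without KO Dox replicate 1 and 3 without KO Dox replicate 2. Scaling by total counts gave 3 higher, trend removal 10 higher, and leaving out KO DMSO replicates 1 and 2 gave 4 called (1 higher, 3 lower). For the interaction, leaving out single libraries gave 7 to 15 (0 to 5 higher, 6 to 11 lower). Higher genes, 2 in the fit of all libraries, numbered 5 without KO DMSO replicate 1, 0 without KO DMSO replicate 3 or KO Dox replicate 1, and 1 without WT DMSO replicate 2 or 3, KO DMSO replicate 2, WT Dox replicate 3, KO Dox replicate 2 or KO Dox replicate 3. They numbered 0 with scaling by total counts, 1 with the set term, 10 (of 18 called) with trend removal and 4 without KO DMSO replicates 1 and 2. The cause of these moves was not tested. DESeq2 called 36 genes for Dox in WT, 12 for Dox in KO and 9 in the interaction.

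Same-numbered libraries did not deviate together (correlations of -0.108 to 0.112), so the numbers do not pair them. With the replicate number as a block, 40 genes were called for Dox in WT, 14 for Dox in KO, 9 in the interaction, 60 for KO with DMSO and 61 for KO with Dox, each within 1.5 times of the fit without it.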
